A study of Mus musculus with 24 samples.

Results

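The C-type lectin receptors Clec4n, Clec4d, Clec4e, Clec5a, Clec7a, Clec4a2, Clec12a, Clec4a1, Clec4a3 and Clec10a were followed by ATAC-seq, in which a transposase inserts adapters into open DNA so that read counts measure chromatin accessibility. Their peaks were taken as the consensus peaks, which are regions merged over the peak calls of all libraries, that overlapped one of the genes or the 20 kb on either side of it in the GENCODE vM21 annotation of mm10. Each peak was given to the nearest of the 10 genes. This gave 98 of 184158 consensus peaks, of which 95 had enough reads to be tested, and the others were 1 peak each near Clec10a, Clec4a3 and Clec4e. By gene, the 98 peaks were 15 for Clec4a2, 14 for Clec12a, 13 for Clec7a, 12 for Clec5a, 10 for Clec4a3, 8 each for Clec4n and Clec10a, 7 each for Clec4d and Clec4e, and 4 for Clec4a1. Of all 98, 41 overlapped one of the receptor genes, in whole or in part, and 15 lay over another gene only.

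The cells were bone marrow-derived macrophages (BMDM), grown in every group with the cytokines GM-CSF (10 ng/ml) and TGF-β (2 ng/ml) and 10% serum, a culture used to obtain macrophages of an alveolar type. Bone marrow came from wild-type (WT) C57BL/6J mice or from mice with a germline deletion (B6.129-Ahr tm1Bra/J) in the gene of the aryl hydrocarbon receptor (AhR-KO), a receptor that turns on genes after binding small molecules. The study describes the libraries of a group as coming from separate animals, with young adult mice of both sexes matched between the genotypes. Whether the unstimulated and the LPS libraries of a genotype share animals is not given in the sources used here. There were 6 libraries in each of 4 groups, WT and AhR-KO cells without stimulation (WT unstimulated and AhR-KO unstimulated) and with LPS (WT LPS and AhR-KO LPS). LPS cells received 97 EU/ml lipopolysaccharide, a component of bacterial cell walls, on day 6 for 24 h. The calcium ionophore A23187 followed at 5 µM for 10 min, and the labels attach this treatment to every library, so they do not show whether unstimulated cells received the ionophore too.

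C-type lectin receptors bind sugars on microbes and ligands from damaged cells. Clec4n (Dectin-2), Clec4d (MCL) and Clec4e (Mincle) signal through the adaptor FcRγ and Clec5a (MDL-1) through DAP12 to the kinase Syk, and Clec7a (Dectin-1), the receptor for fungal β-glucan, reaches Syk through a motif of its own. Clec4a2 (DCIR) and Clec12a (MICL) carry an inhibitory motif, Clec4a1 and Clec4a3 are close relatives of Clec4a2, and Clec10a (MGL1) binds galactose-type sugars, takes up its ligands and is a common marker of alternatively activated macrophages. All but Clec10a, which is on chromosome 11, stand on mouse chromosome 6.

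Some of the regions on which the comparisons turn are shown as the plus strand of mm10 (RefSeq), 5′ to 3′, to let their letters be read beside the values. Those of Clec10a, Clec4a2 and Clec12a had the smallest p-value of all receptor peaks in at least 1 comparison, and those of Clec7a and Clec4e were added after the values were seen. Each is the central 300 bases of its peak, except that the Clec10a window was kept to the 183 bases outside annotated transcript ends. Capitals mark matches to searched motifs, which are GAGGAAGT (PU.1) in Clec10a, TGANTCA (AP-1) at 2 places in Clec4a2, TTCNNNGAA (STAT) in Clec12a and TTGCNNAA (C/EBP, on the minus strand) in Clec7a. The Clec4e window held no match.
Clec10a start-site peak, chr11:70166440-70166622: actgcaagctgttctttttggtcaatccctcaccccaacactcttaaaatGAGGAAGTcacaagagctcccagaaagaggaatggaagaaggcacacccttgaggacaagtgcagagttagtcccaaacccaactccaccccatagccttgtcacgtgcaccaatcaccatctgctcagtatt
Clec4a2 downstream peak, chr6:123152858-123153157: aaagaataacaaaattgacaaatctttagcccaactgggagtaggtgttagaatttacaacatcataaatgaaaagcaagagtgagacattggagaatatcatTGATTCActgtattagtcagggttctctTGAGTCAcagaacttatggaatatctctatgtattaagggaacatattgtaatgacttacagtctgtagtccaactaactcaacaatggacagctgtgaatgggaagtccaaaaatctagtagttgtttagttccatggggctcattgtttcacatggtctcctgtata
Clec12a downstream peak, chr6:129369636-129369935: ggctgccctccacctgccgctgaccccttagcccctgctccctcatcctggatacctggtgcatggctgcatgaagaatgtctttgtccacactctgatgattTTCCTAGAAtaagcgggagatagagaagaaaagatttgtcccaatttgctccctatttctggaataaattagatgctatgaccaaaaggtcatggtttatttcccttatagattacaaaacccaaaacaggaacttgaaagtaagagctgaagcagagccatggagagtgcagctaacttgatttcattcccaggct
Clec7a upstream peak, chr6:129478401-129478700: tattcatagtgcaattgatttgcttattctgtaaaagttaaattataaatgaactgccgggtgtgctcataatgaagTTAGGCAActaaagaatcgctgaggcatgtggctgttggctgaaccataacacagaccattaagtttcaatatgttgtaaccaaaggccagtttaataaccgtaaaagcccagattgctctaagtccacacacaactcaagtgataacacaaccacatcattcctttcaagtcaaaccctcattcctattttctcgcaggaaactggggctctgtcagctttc
Clec4e downstream peak, chr6:123280160-123280459: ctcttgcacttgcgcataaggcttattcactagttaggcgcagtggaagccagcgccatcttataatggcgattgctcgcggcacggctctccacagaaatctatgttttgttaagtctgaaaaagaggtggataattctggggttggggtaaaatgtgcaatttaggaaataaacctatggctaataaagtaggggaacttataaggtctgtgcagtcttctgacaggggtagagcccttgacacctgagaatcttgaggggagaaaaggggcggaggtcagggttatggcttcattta

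Reads in consensus peaks ranged from 8536838 to 34598345 a library, and the shallowest was a WT unstimulated library. Over the start of Ahr itself, normalised read counts (CPM, reads scaled to library size and composition) ranged from 20.2 to 24.5 in unstimulated WT, 11.5 to 15.1 in unstimulated AhR-KO, 18.9 to 22.1 in WT LPS and 11.8 to 16.7 in AhR-KO LPS libraries. That peak lies outside the deleted part of the gene, so it does not check the deletion. All 8 macrophage and all 6 alveolar macrophage marker genes had a start-site peak. Their summed CPM per kb of peak were 125 to 142 and 43.8 to 55.995 in WT unstimulated, 147 to 201 and 61.7 to 79.4 in AhR-KO unstimulated, 115 to 129 and 33.2 to 40.6 in WT LPS, and 109 to 152 and 38.2 to 50.01 in AhR-KO LPS libraries. Both lists were thus higher in all unstimulated AhR-KO libraries than in any unstimulated WT library, the same libraries in which several receptor peaks described next were higher, and their part in those results was not tested. Dendritic cell markers (4 of 6 with a peak, not Xcr1 or Clec9a) held a summed 14.3 to 24.8, 13.2 to 18.4, 18.9 to 34.8 and 12.4 to 17.7 CPM per kb in the same order of groups. Without LPS the mean of Flt3 was lower in AhR-KO (3.17, WT 7.03) and that of Zbtb46 higher (10.4, WT 8.96). In WT the mean of Ccr7 went from 1.34 without to 10.05 with LPS. Mast cell markers (1 of 4, Kit) held 3.78 to 5.46, 1.67 to 2.23, 4.62 to 6.69 and 2.31 to 2.95. Neutrophil markers (4 of 6, not Ly6g or Elane) lay between 37.6 and 53.0 over all libraries, T cell markers (3 of 4, not Cd3g) between 10.2 and 15.8, erythroid markers (2 of 4, not Klf1 or Hbb-bs) between 2.65 and 6.36, and no B cell marker had a peak (0 of 4). Among the neutrophil markers Camp rose with LPS in mean (10.3 to 18.7 in WT), whereas S100a8 (20.6 to 16.6 in WT), Ngp and Ltf fell. In such bulk samples, more open DNA per cell and more cells with open DNA cannot be told apart.

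Each receptor had a peak over an annotated transcript start. In WT unstimulated libraries it held, per kb of peak, 29.6 ± 0.889 CPM (mean and SD, n = 6) for Clec4a1, 28.3 ± 0.966 for Clec4a2, 22.7 ± 1.17 for Clec4a3, 21.97 ± 1.46 for Clec12a, 18.3 ± 0.810 for Clec5a, 12.6 ± 2.43 for Clec4d, 11.6 ± 0.893 for Clec4n, 9.71 ± 0.917 for Clec10a, 9.06 ± 0.727 for Clec7a and 9.06 ± 0.821 for Clec4e. Neighbours in this order that differed by less than the SD of each were Clec4a3 and Clec12a, and the last 3 genes, while Clec4d and Clec4n differed by less than the SD of Clec4d only. The order depends on peak width, which was 3081 bases at Clec7a, 3030 at Clec4e, 933 at Clec10a, 611 at Clec5a and 583 at Clec4d. In CPM not divided by width, given for each peak below, Clec7a and Clec4e stood above Clec5a, Clec10a and Clec4d in WT unstimulated libraries. Parts of 3 of these peaks align elsewhere in the receptor loci, namely 42.5% of the bases at Clec4a2, 25.5% at Clec4n and 13.3% at Clec7a. For Clec10a, Clec4a2 and Clec12a the peak lay over an internal transcript start, 10.4, 16.7 and 8.0 kb into the gene, and for the other 7 over the start of the gene.

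**Figure D1:**
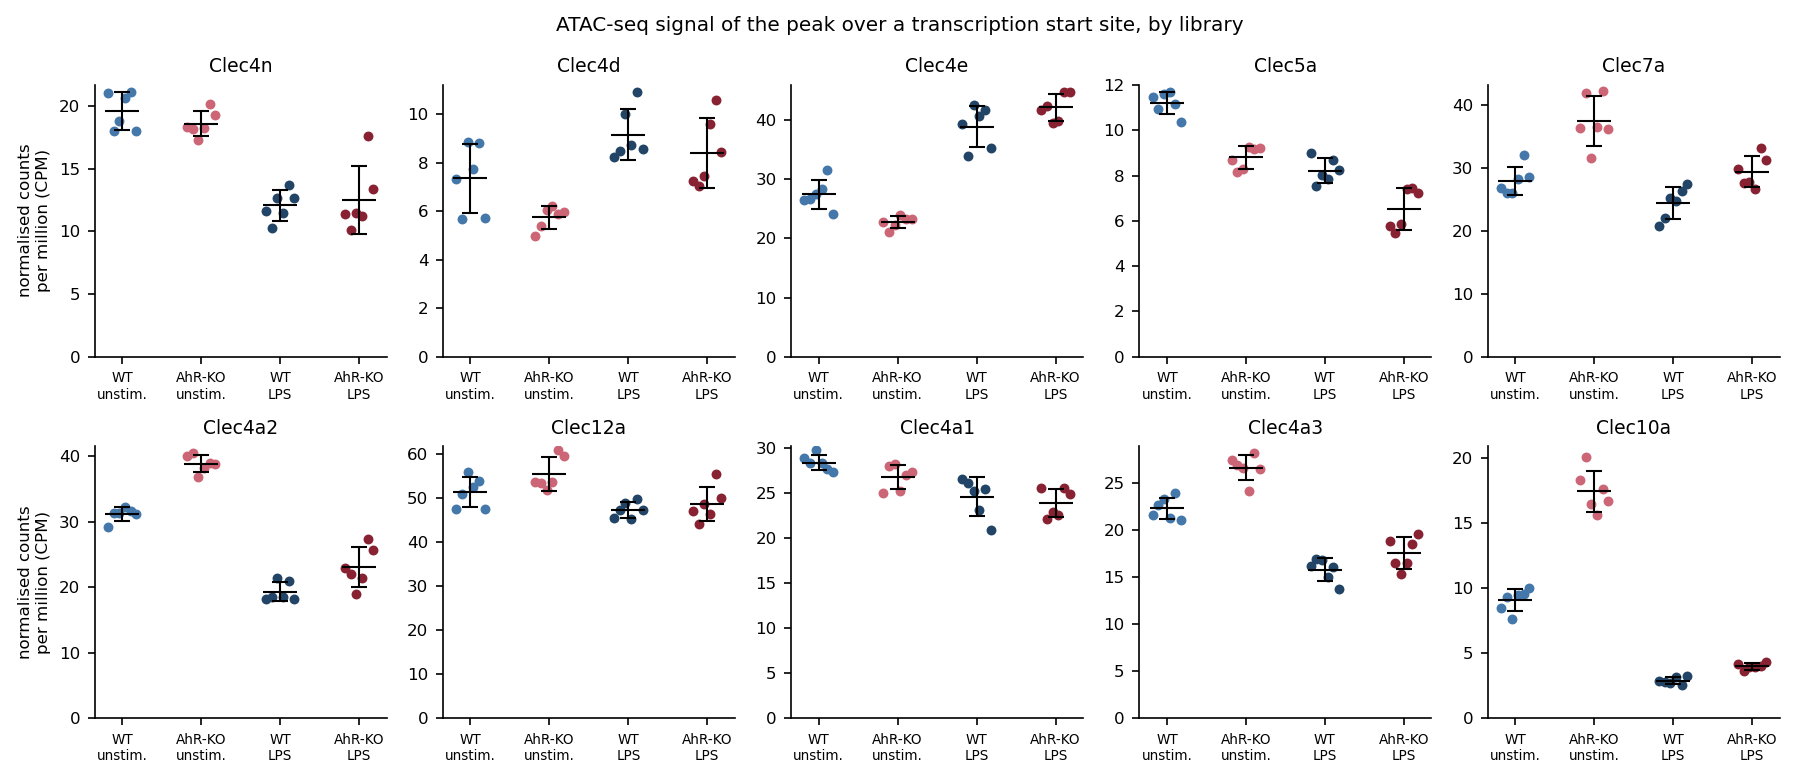
Normalised CPM (vertical axis from 0, own scale in each panel) of the start-site peak of each receptor, with 1 point per library, 6 per group, and the mean and SD in black. Clec10a stands highest in AhR-KO unstimulated libraries (15.6 to 20.02 CPM) and low in both LPS groups, and Clec4e stands higher in both LPS groups than in either unstimulated group.

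The genotype comparison asked whether loss of AhR changed accessibility at these receptors. Peaks were called differentially accessible regions (DARs) where the groups differed at least 1.5-fold and the Benjamini-Hochberg adjusted p over all 174193 tested peaks, from edgeR's quasi-likelihood test, did not exceed 0.05. In unstimulated cells 14 of the 95 receptor peaks were higher in AhR-KO (14.7%, background of all tested peaks 9.96%) and 8 were lower (8.42%, background 12.6%), or 16 and 5 with RLE size factors. With LPS, 9 were higher (9.47%, background 13.4%) and 10 were lower (10.5%, background 13.1%). The median log2 fold change of AhR-KO over WT was 0.06 without and 0.03 with LPS, against -0.02 and 0.02 over all tested peaks. Without LPS the higher DARs were at Clec7a (7), Clec4a2 (5), Clec10a (1) and Clec12a (1), and the lower ones at Clec4a3 (4), Clec5a (2) and Clec12a (2). With LPS the higher DARs were at Clec7a (4), Clec4a2 (3), Clec4d (1) and Clec10a (1), and the lower ones at Clec4a3 (4), Clec12a (3), Clec5a (2) and Clec10a (1). Kept in all 29 alternative fits were 10 higher and 3 lower calls of the unstimulated state, and 7 higher and 6 lower calls of the LPS state. Most lower DARs had the coding start of a gene other than the 10 receptors as their nearest. Only 67 of the 95 tested peaks had a receptor's coding start as the nearest. These 67 held 2 of the 8 lower DARs found in unstimulated cells and 4 of the 10 found after LPS. Of the higher DARs they held 9 of 14 and 6 of 9.

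**Figure D2:**
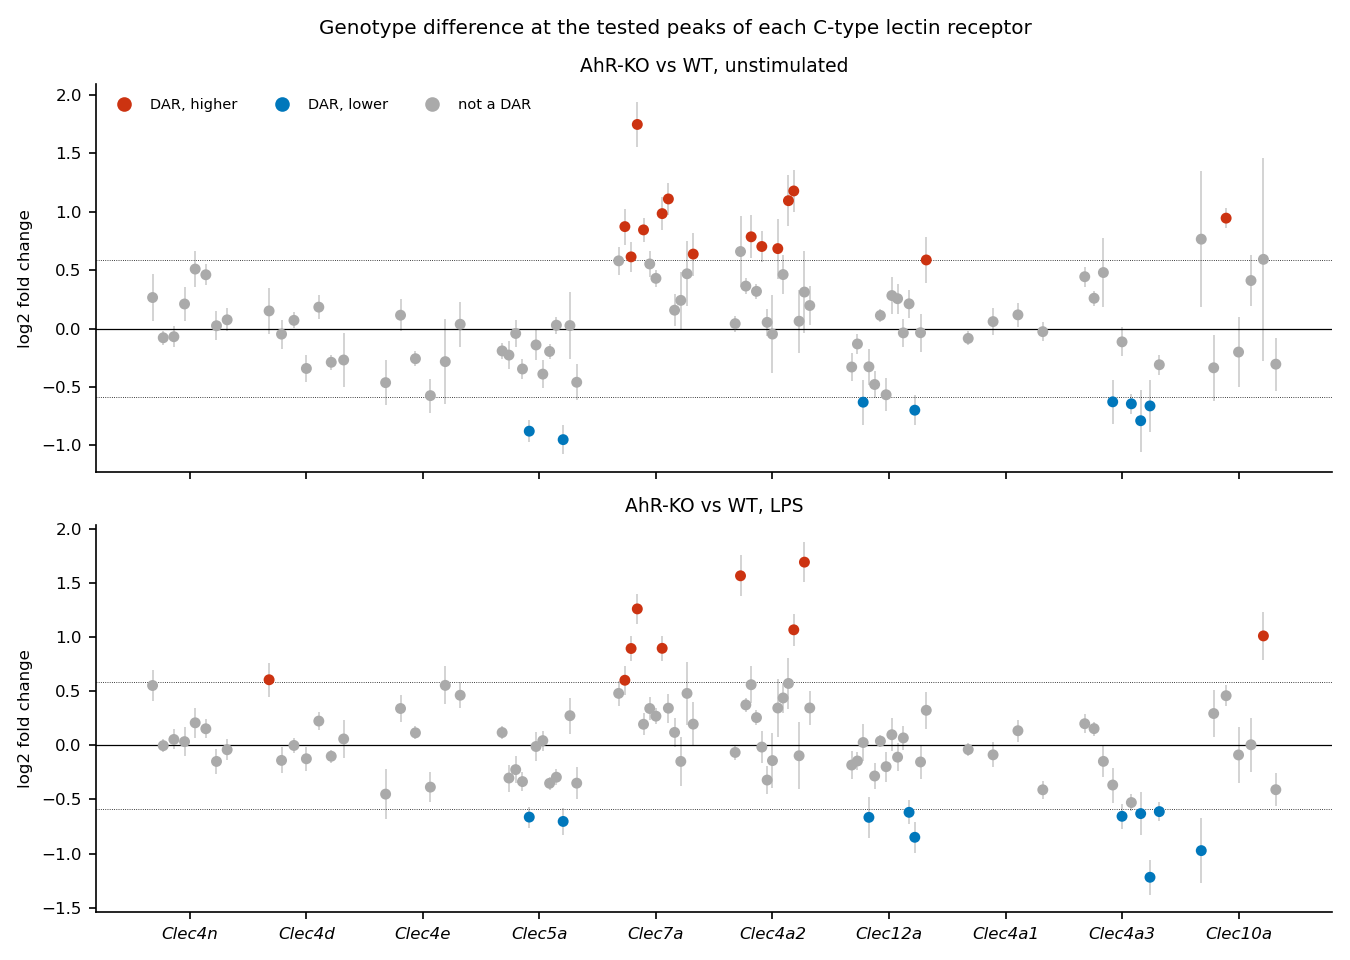
Log2 fold change of AhR-KO over WT (vertical axis, bars are standard errors) for the 95 tested peaks, grouped by gene and ordered within a gene from upstream to downstream, without LPS (top) and with LPS (bottom). Red points are higher DARs (14 and 9), blue points lower DARs (8 and 10) and grey points no DARs, and dotted lines mark 1.5-fold. Most red points are at Clec7a and Clec4a2, and Clec4a3 and Clec5a have blue points in both panels.

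Clec7a had more higher DARs in AhR-KO than any of the other receptors, 7 of 13 tested peaks in the unstimulated and 4 in the LPS state, and no lower ones. Of these calls, 5 and 3 were kept in all 29 alternative fits. The median log2 fold change of its peaks was 0.61 without and 0.34 with LPS. At the peak with the smallest p, 5.8 kb upstream of the gene start at chr6:129478354-129478748 (sequence above), the lowest, median and highest values were 0.494, 0.587 and 0.969 CPM in unstimulated WT, 1.45, 2.28 and 2.64 in unstimulated AhR-KO, 1.49, 1.85 and 2.70 in LPS-treated WT and 3.99, 4.65 and 5.28 in LPS-treated AhR-KO libraries. AhR-KO stood above WT without overlap in both states. The difference was 3.36-fold without LPS (log2 fold change and SE 1.75 ± 0.19, adjusted p = 2.85e-09) and 2.40-fold with LPS (1.26 ± 0.14, adjusted p = 3.15e-09). The region was weak in WT unstimulated libraries, at 5 to 22 reads. No unstimulated library had a peak call of its own there (0 of 6 and 0 of 6), whereas 3 of 6 WT LPS and 6 of 6 AhR-KO LPS libraries had.

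Over the 3′ end of Clec7a, chr6:129458697-129462636, a peak named after its values were seen held 11.01, 13.4 and 14.1 CPM in unstimulated WT, 20.3, 27.7 and 35.5 in unstimulated AhR-KO, 10.97, 16.3 and 19.4 in LPS-treated WT and 15.996, 19.3 and 24.3 in LPS-treated AhR-KO libraries (lowest, median and highest, as for all peaks that follow). Without LPS all AhR-KO libraries were above all WT libraries (2.16-fold, 1.11 ± 0.14, adjusted p = 4.34e-07). With LPS the ranges overlapped, and the difference was under the fold limit (0.34 ± 0.13, adjusted p = 0.0375). Of the bases of this peak, 23.4% align elsewhere in the receptor loci. Over the Clec7a start, chr6:129470049-129473129, the values were 26.03, 27.5 and 31.9 CPM in unstimulated WT, 31.5, 36.4 and 42.1 in unstimulated AhR-KO, 20.7, 24.98 and 27.3 in LPS-treated WT and 26.7, 28.8 and 33.1 in LPS-treated AhR-KO libraries. Here 5 of 6 AhR-KO libraries stood above the WT range in each state. The start-site peak was nevertheless no DAR, with log2 fold changes of 0.43 ± 0.07, adjusted p = 1.09e-05, without LPS and 0.27 ± 0.07, adjusted p = 0.00233, with LPS. Of the 13 peaks given to Clec7a, 4 lay over Clec1a and 2 over Olr1, neighbouring lectin-like receptor genes, and 2 of the 7 higher DARs without LPS were among these 6.

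**Figure D3:**
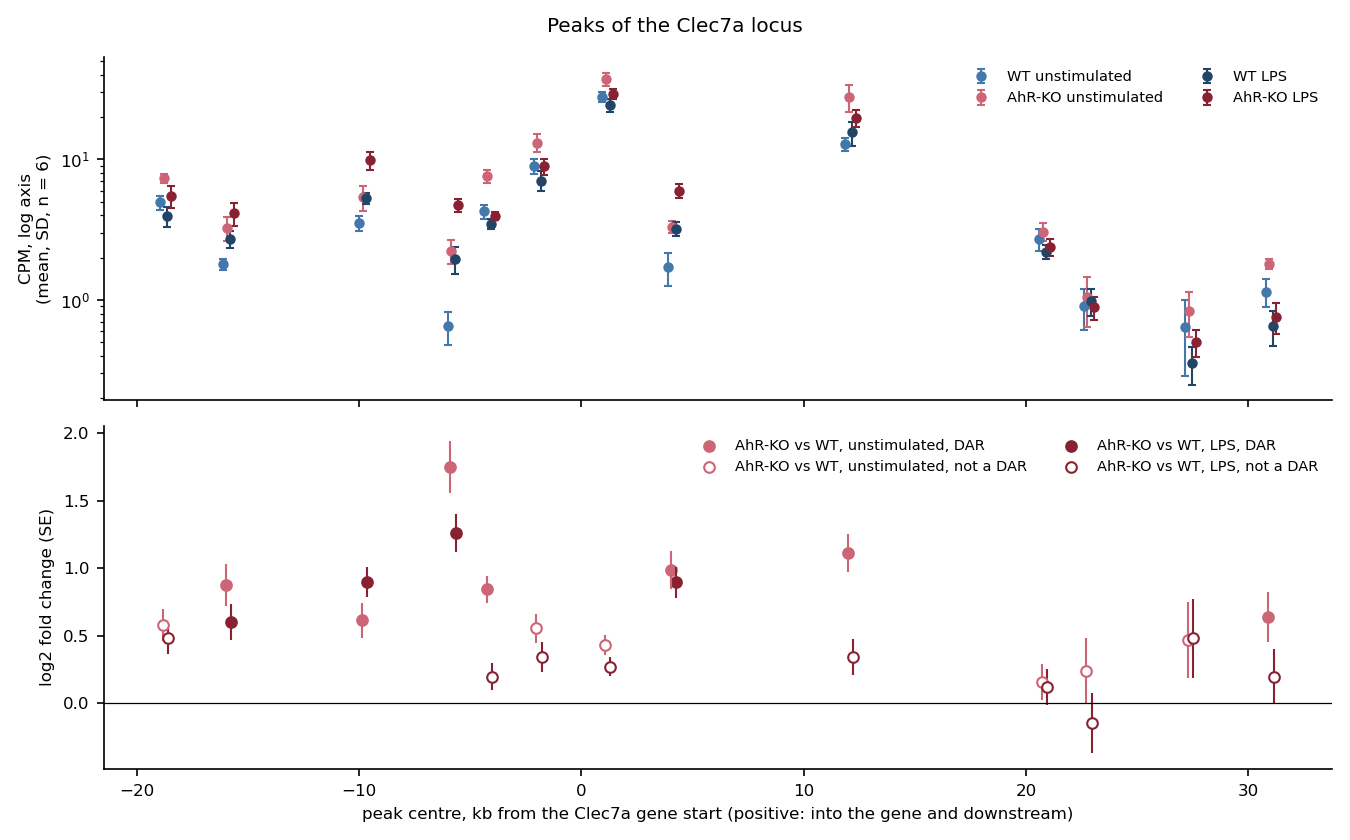
The 13 peaks given to Clec7a by distance of the peak centre from the gene start in kb (horizontal axis, negative upstream). The top panel gives CPM on a log axis (mean and SD, n = 6 per group) and the bottom panel the log2 fold change of AhR-KO over WT with its SE, filled where the peak was a DAR. The peak 5.8 kb upstream has the largest log2 fold change in both states.

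Among the receptors with an inhibitory motif, Clec4a2 had 5 of 15 tested peaks higher in AhR-KO without LPS and 3 with LPS (5 without WT LPS replicate 3), and no lower ones. A peak downstream of the gene, chr6:123149266-123149722, held 0.617, 0.889 and 1.19 CPM in unstimulated WT, 1.65, 2.05 and 2.67 in unstimulated AhR-KO, 0.940, 1.25 and 1.69 in LPS-treated WT and 2.40, 2.76 and 2.90 in LPS-treated AhR-KO libraries. AhR-KO was above WT without overlap in both states, 2.26-fold (1.18 ± 0.18, adjusted p = 1.31e-06) and 2.10-fold (1.07 ± 0.15, adjusted p = 3.44e-07). Of its bases, 98.7% align elsewhere in the receptor loci, with 92.03% identity in the best match, and 0% do so at 95% identity or more. Whether its reads are shared with those places was not tested. Further downstream, chr6:123152762-123153254, which holds the AP-1 matches printed above, had 0.174, 0.247 and 0.348 CPM in unstimulated WT, 0.219, 0.289 and 0.381 in unstimulated AhR-KO, 0.478, 0.839 and 1.15 in LPS-treated WT and 1.89, 2.82 and 3.63 in LPS-treated AhR-KO libraries. The unstimulated genotypes overlapped at 3 to 7 and 5 to 9 reads a library, and with LPS every AhR-KO library was above every WT library. The difference was 0.31 ± 0.35 on the log2 scale without LPS (adjusted p = 0.512) and 3.23-fold with LPS (1.69 ± 0.18, adjusted p = 2.13e-09). Both downstream peaks lie nearer to the coding start of Clec4b2, the next lectin gene, than to that of Clec4a2.

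Another pair of Clec4a2 peaks was named after their values were seen. The intronic peak chr6:123114364-123114607 held 0.198, 0.349 and 0.465 CPM in unstimulated WT, 0.392, 0.538 and 0.702 in unstimulated AhR-KO, 0.422, 0.789 and 1.41 in LPS-treated WT and 1.98, 2.36 and 3.57 in LPS-treated AhR-KO libraries. With LPS AhR-KO was above WT without overlap (2.96-fold, 1.57 ± 0.19, adjusted p = 2.56e-08), and without LPS the log2 fold change was 0.66 ± 0.31 (adjusted p = 0.0839). Of its bases, 67.2% match another place in the Clec4a2 locus at 95% identity or more, so its reads are uncertain, although sharing of reads was not tested. The downstream peak chr6:123145892-123147001 held 0.617, 0.813 and 1.28 CPM in unstimulated WT, 0.973, 1.96 and 2.21 in unstimulated AhR-KO, 0.313, 0.503 and 0.650 in LPS-treated WT and 0.607, 0.700 and 0.975 in LPS-treated AhR-KO libraries. Without LPS 5 of 6 AhR-KO libraries stood above the WT range (2.14-fold, 1.10 ± 0.22, adjusted p = 9.22e-05), and with LPS the difference was no DAR (0.57 ± 0.24, adjusted p = 0.0464).

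Over the Clec4a2 start, chr6:123122616-123123715, the values were 29.1, 31.3 and 32.2 CPM in unstimulated WT, 36.8, 38.9 and 40.4 in unstimulated AhR-KO, 18.1, 18.6 and 21.4 in LPS-treated WT and 19.01, 22.5 and 27.4 in LPS-treated AhR-KO libraries. Without LPS AhR-KO was above WT without overlap, by 0.32 ± 0.07 on the log2 scale (adjusted p = 0.000141), and with LPS the ranges overlapped at 0.26 ± 0.07 (adjusted p = 0.00161). Both values were under the fold limit.

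Clec12a, the other inhibitory receptor, had lower DARs in AhR-KO away from its start-site peak. The peak chr6:129375063-129375556, over the neighbouring gene Clec12b, held 5.19, 5.39 and 6.34 CPM in unstimulated WT, 3.02, 3.31 and 4.55 in unstimulated AhR-KO, 1.66, 2.58 and 2.86 in LPS-treated WT and 1.13, 1.33 and 1.90 in LPS-treated AhR-KO libraries. It was 1.62-fold lower in AhR-KO without LPS (-0.70 ± 0.13, adjusted p = 2.80e-05), without overlap, and 1.80-fold lower with LPS (-0.85 ± 0.14, adjusted p = 7.39e-06), with overlap. The other Clec12a genotype calls depended on the libraries or settings used. Without LPS its lower DARs went from 2 to 1 with RLE size factors, with DESeq2 or without WT unstimulated replicate 3, and its 1 higher DAR was lost without WT unstimulated replicate 1, 2 or 6 or AhR-KO unstimulated replicate 1 or 5. With LPS 1 of its 3 lower DARs was kept in all 29 alternative fits. Over the Clec12a start, chr6:129349491-129351831, libraries held 47.5, 51.7 and 56.02 CPM in unstimulated WT, 51.9, 53.7 and 61.04 in unstimulated AhR-KO, 45.4, 47.4 and 49.8 in LPS-treated WT and 44.1, 47.98 and 55.6 in LPS-treated AhR-KO libraries. The groups overlapped there, and the genotype log2 fold changes were 0.11 ± 0.06 (adjusted p = 0.111) and 0.04 ± 0.06 (adjusted p = 0.602).

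Clec4a3, a relative of Clec4a2, had lower DARs in AhR-KO, 4 of 9 tested peaks in each state, and no higher ones. Without LPS there were 2 with RLE size factors and 2 with DESeq2, and none of the 4 was kept in all 29 alternative fits (0 of 4), whereas 2 of the 4 with LPS were. Downstream of the gene, chr6:122986501-122986832 held 0.543, 0.831 and 0.964 CPM in unstimulated WT, 0.324, 0.514 and 0.591 in unstimulated AhR-KO, 1.83, 2.18 and 2.82 in LPS-treated WT and 0.650, 0.918 and 1.25 in LPS-treated AhR-KO libraries. With LPS all AhR-KO libraries were below all WT libraries, 2.33-fold (-1.22 ± 0.16, adjusted p = 1.32e-07), and 6 of 6 WT but 1 of 6 AhR-KO libraries had a peak call of their own. Without LPS the ranges overlapped (-0.66 ± 0.22, adjusted p = 0.0171), and the peak was no DAR without WT unstimulated replicate 4 (-0.58), without AhR-KO unstimulated replicate 2 (-0.58) or with DESeq2 (-0.61). The peak chr6:122972487-122973254 held 7.78, 9.56 and 10.3 CPM in unstimulated WT, 5.45, 5.74 and 7.33 in unstimulated AhR-KO, 16.1, 17.01 and 18.7 in LPS-treated WT and 10.9, 11.98 and 13.2 in LPS-treated AhR-KO libraries. AhR-KO was below WT without overlap in both states, by -0.64 ± 0.09 on the log2 scale without LPS (adjusted p = 1.34e-07, and -0.58, no DAR, with RLE size factors) and by -0.53 ± 0.07 with LPS (adjusted p = 4.01e-07, under the fold limit). Both peaks have Clec4a4, the next gene, as their nearest coding start, and 95.8% and 82.3% of their bases align elsewhere in the receptor loci, with 83.1% and 84.8% identity in the best match.

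At the start of Clec4a3, chr6:122952173-122953156, the direction was the opposite, with 21.1, 22.1 and 23.9 CPM in unstimulated WT, 24.2, 26.8 and 28.2 in unstimulated AhR-KO, 13.7, 16.2 and 16.97 in LPS-treated WT and 15.4, 17.6 and 19.6 in LPS-treated AhR-KO libraries. Without LPS AhR-KO was above WT without overlap (0.26 ± 0.06, adjusted p = 0.00142, under the fold limit), and with LPS the ranges overlapped (0.15 ± 0.06, adjusted p = 0.0503). Clec4a1, the other relative of Clec4a2, had no genotype DAR in any of the 29 alternative fits. Over its start, chr6:122921143-122922104, the values were 27.4, 28.3 and 29.8 CPM in unstimulated WT, 25.1, 27.2 and 28.2 in unstimulated AhR-KO, 20.9, 25.4 and 26.6 in LPS-treated WT and 22.1, 23.9 and 25.6 in LPS-treated AhR-KO libraries. The genotypes overlapped in both states (-0.08 ± 0.06, adjusted p = 0.276, and -0.04 ± 0.06, adjusted p = 0.623).

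Clec10a had the only DAR between the genotypes among the 10 start-site peaks, at chr11:70166124-70167056 (sequence above). The libraries held 7.62, 9.37 and 9.98 CPM in unstimulated WT, 15.6, 17.1 and 20.02 in unstimulated AhR-KO, 2.58, 2.83 and 3.28 in LPS-treated WT and 3.59, 3.96 and 4.33 in LPS-treated AhR-KO libraries. Without LPS all AhR-KO libraries were above all WT libraries, 1.93-fold (0.95 ± 0.08, adjusted p = 2.16e-11). With LPS they were again above without overlap, but the difference of 1.37-fold (0.46 ± 0.10, adjusted p = 0.000165) was under the fold limit. A peak 33.3 kb from the gene start, chr11:70189229-70189677, named after its values were seen, held 0 to 3 reads a library in WT and 0 to 6 in AhR-KO without LPS. With LPS it held 1.79, 2.42 and 3.60 CPM in WT and 3.08, 5.02 and 7.43 in AhR-KO libraries, which overlapped, and it was 2.02-fold higher in AhR-KO (1.01 ± 0.22, adjusted p = 0.000480). The lower DAR of Clec10a with LPS was joined by another, in an intron, in 22 of the 29 alternative fits (DESeq2, no low-count filter and 20 of the 24 fits without 1 library), since that peak of 1 to 30 reads in LPS libraries had too few reads to be tested otherwise. Without LPS the higher DARs of Clec10a went from 1 to 2 without WT unstimulated replicate 2.

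Of the receptors coupled to an activating adaptor, Clec5a had 2 lower DARs in AhR-KO in each state, which were kept in all 29 alternative fits. In the exonic peak chr6:40584281-40584744 the libraries held 8.83, 11.3 and 12.3 CPM in unstimulated WT, 5.29, 6.08 and 6.93 in unstimulated AhR-KO, 5.72, 7.17 and 8.85 in LPS-treated WT and 4.29, 4.52 and 4.97 in LPS-treated AhR-KO libraries. AhR-KO was below WT without overlap in both states, 1.84-fold (-0.88 ± 0.10, adjusted p = 3.39e-09) and 1.58-fold (-0.66 ± 0.10, adjusted p = 8.52e-07). The start-site peak next to it, chr6:40585502-40586112, held 10.4, 11.3 and 11.7 CPM in unstimulated WT, 8.15, 8.95 and 9.28 in unstimulated AhR-KO, 7.54, 8.12 and 8.999 in LPS-treated WT and 5.44, 6.55 and 7.43 in LPS-treated AhR-KO libraries. Its genotypes did not overlap in either state and AhR-KO was the lower, with log2 fold changes of -0.35 ± 0.08, adjusted p = 0.00112, and -0.33 ± 0.08, adjusted p = 0.00134, both under the fold limit.

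Clec4n, Clec4d and Clec4e, the FcRγ-coupled receptors, had 1 genotype DAR between them. Over the Clec4e start, chr6:123288510-123291539, the libraries held 24.1, 27.1 and 31.6 CPM in unstimulated WT, 21.2, 23.03 and 23.97 in unstimulated AhR-KO, 33.9, 40.02 and 42.4 in LPS-treated WT and 39.5, 42.02 and 44.8 in LPS-treated AhR-KO libraries. Without LPS all AhR-KO libraries were below all WT libraries (-0.26 ± 0.06, adjusted p = 0.00122), and with LPS the ranges overlapped (0.12 ± 0.06, adjusted p = 0.113). Neither value reached 1.5-fold, and nor did the difference between them (0.37 ± 0.09, adjusted p = 0.00303). The start of Clec4n, chr6:123229422-123231107, gave -0.07 ± 0.09, adjusted p = 0.580, and 0.05 ± 0.09, adjusted p = 0.668, and that of Clec4d, chr6:123261640-123262222, gave -0.34 ± 0.12, adjusted p = 0.0208, and -0.12 ± 0.11, adjusted p = 0.373, with overlap in each. The DAR was 6.9 kb upstream of Clec4d, at chr6:123254998-123255449, where libraries held 0.527, 1.28 and 1.63 CPM in unstimulated WT, 0.964, 1.30 and 1.73 in unstimulated AhR-KO, 1.35, 1.82 and 2.31 in LPS-treated WT and 2.22, 2.68 and 3.44 in LPS-treated AhR-KO libraries. With LPS AhR-KO was higher, with overlap (0.61 ± 0.16, adjusted p = 0.00204), and the peak was no DAR without WT LPS replicate 1 (0.53) or 2 (0.56), without AhR-KO LPS replicate 5 (0.57) or 6 (0.53), or with only the compared groups in the fit (0.58). Counts of 0 also moved. Without LPS Clec4e had 2 lower DARs without WT unstimulated replicate 2 and 1 without WT unstimulated replicate 4 or 6 or AhR-KO unstimulated replicate 4, 5 or 6. With LPS it had 1 higher DAR without WT LPS replicate 3 or AhR-KO LPS replicate 1 or 3, and Clec4n had 1 without WT LPS replicate 2 or AhR-KO LPS replicate 1.

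The interaction asked whether the genotype difference with LPS differed from that without. Of the 95 peaks, 4 had a lower difference with LPS (4.21%, background 4.59%) and 1 a higher one (1.05%, background 5.82%). At the Clec7a peak 4.1 kb upstream, chr6:129476737-129477113, the libraries held 3.76, 4.16 and 4.99 CPM in unstimulated WT, 6.68, 7.46 and 8.69 in unstimulated AhR-KO, 3.05, 3.46 and 3.92 in LPS-treated WT and 3.67, 3.95 and 4.33 in LPS-treated AhR-KO libraries. The unstimulated AhR-KO group alone stood apart. The genotype log2 fold change was 0.84 ± 0.10 without LPS (adjusted p = 1.42e-08) and 0.19 ± 0.10 with it (adjusted p = 0.113), a difference of -0.65 ± 0.14 (adjusted p = 0.00163). The 3′ peak of Clec7a described above gave a difference of -0.77 ± 0.19 (adjusted p = 0.00787). In a Clec4a2 intron, chr6:123126174-123126563 held 2.56, 3.51 and 3.76 CPM in unstimulated WT, 4.82, 5.30 and 6.15 in unstimulated AhR-KO, 1.49, 1.94 and 2.66 in LPS-treated WT and 1.503, 1.97 and 2.57 in LPS-treated AhR-KO libraries. The LPS groups overlapped there, while unstimulated AhR-KO was above unstimulated WT, and the difference was -0.72 ± 0.20 (adjusted p = 0.0116).

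Downstream of Clec12a, chr6:129369336-129370237 (sequence above) held 5.58, 5.96 and 6.42 CPM in unstimulated WT, 6.31, 6.68 and 7.80 in unstimulated AhR-KO, 7.05, 10.04 and 13.2 in LPS-treated WT and 5.33, 6.52 and 7.68 in LPS-treated AhR-KO libraries. Here the WT LPS group was the high one, above all WT unstimulated libraries, and the interaction was -0.83 ± 0.16 (adjusted p = 0.000618). With LPS the genotype difference was a DAR (-0.62 ± 0.11, adjusted p = 2.06e-05), but not without WT LPS replicate 2 (-0.57) or 6 (-0.53) or AhR-KO LPS replicate 2 (-0.56). The higher interaction was at the Clec4a2 peak with the AP-1 matches (1.38 ± 0.41, adjusted p = 0.0192), and it missed the threshold without WT unstimulated replicate 3 (1.28, adjusted p = 0.0503). Other fits added calls. Clec4a3 had 1 lower interaction with RLE size factors, with DESeq2, without WT unstimulated replicate 5 or AhR-KO unstimulated replicate 5, and without WT LPS replicate 5 or AhR-KO LPS replicate 6. Clec10a had 1 lower one without WT LPS replicate 3, Clec12a 1 higher one without WT LPS replicate 4, and Clec4a2 had 2 higher ones without WT LPS replicate 5.

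**Figure D4:**
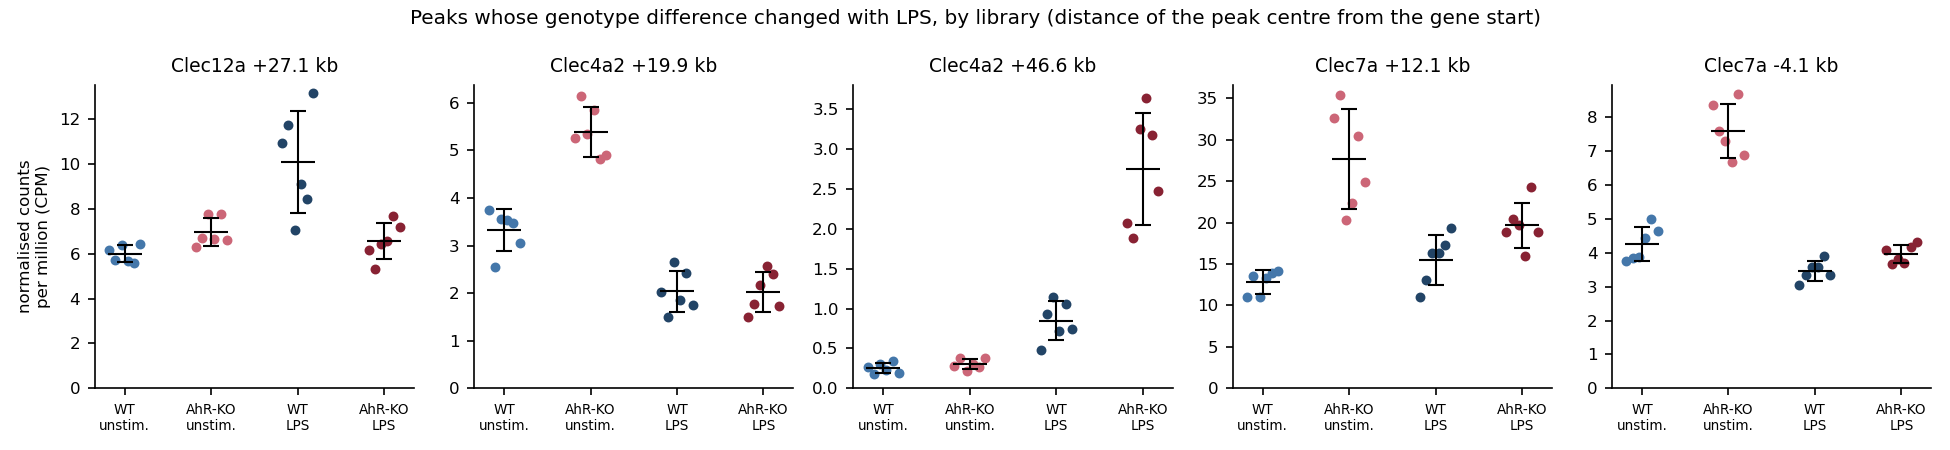
CPM (vertical axis from 0, own scale in each panel) of the 5 peaks whose genotype difference changed with LPS, with 1 point per library, 6 per group, and the mean and SD in black. Titles give the distance of the peak centre from the gene start in kb. Unstimulated AhR-KO libraries stand apart at the upstream Clec7a peak and at the nearer Clec4a2 peak, and overlap AhR-KO LPS libraries at the 3′ Clec7a peak. AhR-KO LPS libraries (1.89 to 3.63 CPM) stand apart at the farther Clec4a2 peak, and WT LPS libraries reach highest (7.05 to 13.2 CPM) at Clec12a.

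The comparison of LPS with unstimulated cells asked which receptors changed on stimulation in each genotype. In WT cells 23 of the 95 peaks were higher with LPS (24.2%, background 25.4%) and 21 lower (22.1%, background 21.6%), and in AhR-KO cells 23 were higher (24.2%, background 27.3%) and 25 lower (26.3%, background 21.5%). The median log2 fold change was -0.09 in WT and -0.16 in AhR-KO cells, against -0.01 and 0.05 over all tested peaks. Clec4d had 3 higher and 0 lower DARs in each genotype. Clec4a3 had 4 higher and 1 lower in WT and 5 and 3 in AhR-KO, Clec10a 3 and 2, then 4 and 2, and Clec4e 2 and 1, then 3 and 1. In the other direction, Clec4a2 had 3 higher and 6 lower DARs in WT and 2 and 7 in AhR-KO, Clec12a 1 and 4, then 0 and 5, and Clec5a 2 and 4, then 2 and 3. Clec7a had 4 higher and 2 lower in WT and 3 and 3 in AhR-KO. Its count of 4 was 2 without WT unstimulated replicate 4, and its count of 2 was 1 without WT unstimulated replicate 3, 4 or 5 or WT LPS replicate 3, 4 or 5. The 1 higher DAR of Clec12a in WT was joined by another without WT LPS replicate 4. Clec4n had 1 higher and 1 lower in WT and 1 higher in AhR-KO, and Clec4a1 0 in WT and 1 lower in AhR-KO.

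**Figure D5:**
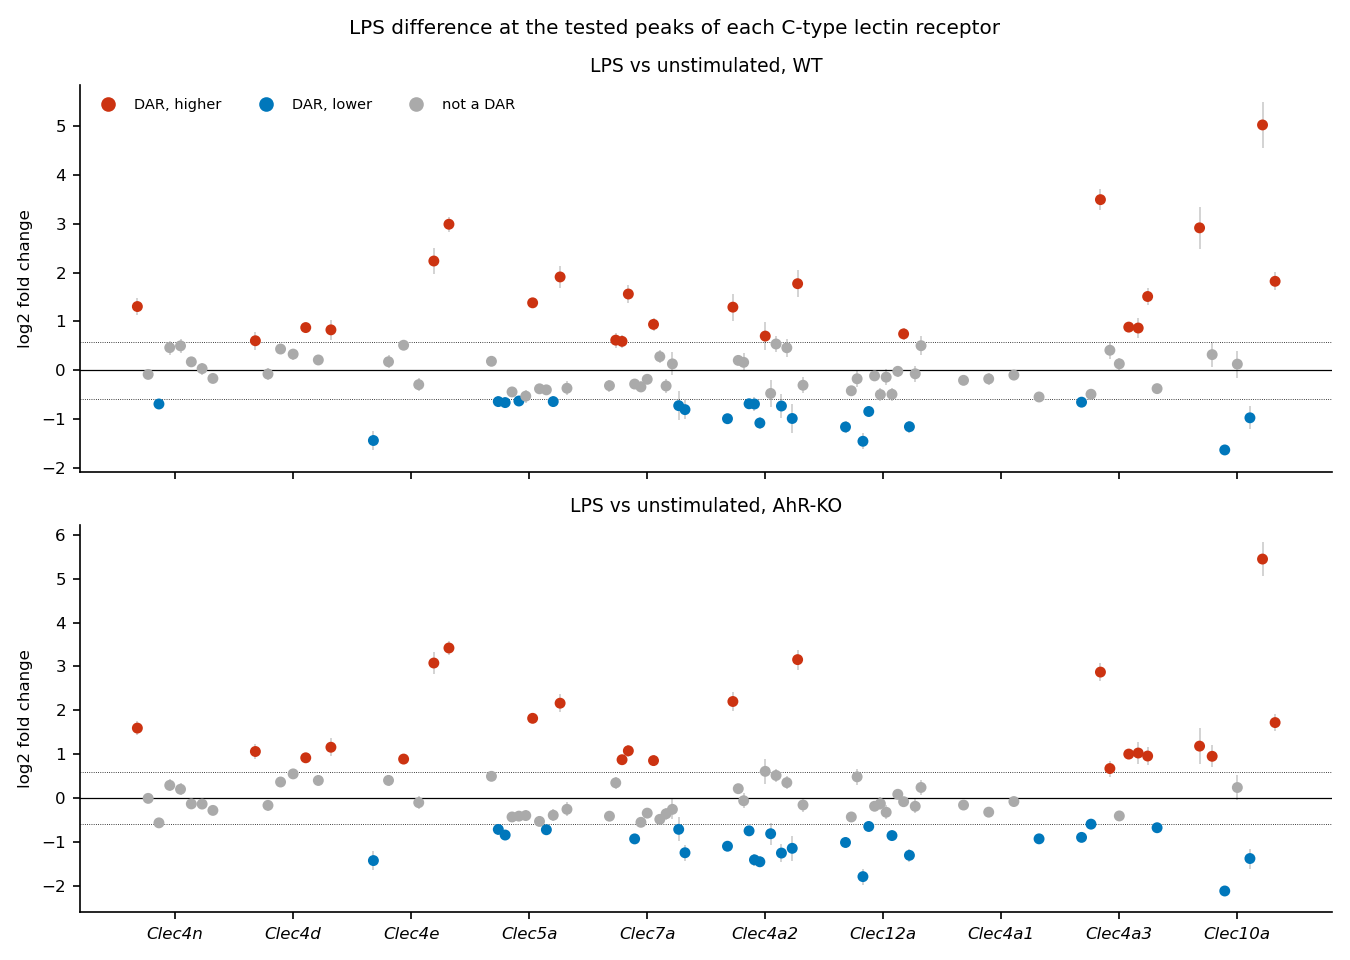
Log2 fold change of LPS over unstimulated (vertical axis, bars are standard errors) for the 95 tested peaks, grouped by gene and ordered within a gene from upstream to downstream, in WT (top) and AhR-KO cells (bottom). Red points are higher DARs (23 in each), blue points lower DARs (21 and 25) and grey points no DARs, and dotted lines mark 1.5-fold. The highest point in each panel is the distal Clec10a peak (5.03 and 5.45) and the lowest the Clec10a start (-1.64 and -2.12).

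Among the activating receptors, the peak with the largest rise on LPS was at Clec4e, although Clec4d had the larger share of higher DARs in WT (3 of 7 against 2 of 6). The broad Clec4e downstream peak, chr6:123278884-123281737 (sequence above), held 1.996, 2.29 and 3.83 CPM in unstimulated WT, 2.06, 2.77 and 3.08 in unstimulated AhR-KO, 18.6, 20.98 and 23.9 in LPS-treated WT and 20.7, 30.1 and 35.7 in LPS-treated AhR-KO libraries. All LPS libraries stood above all unstimulated ones, 7.96-fold in WT (2.99 ± 0.16, adjusted p = 5.60e-16) and 10.7-fold in AhR-KO (3.42 ± 0.15, adjusted p = 4.61e-18). Of its bases, 17.4% align elsewhere in the receptor loci, and 4.24% do so at 95% identity or more. The Clec4e start, whose values stand above, was also higher with LPS without overlap, by 0.51 ± 0.06 on the log2 scale in WT (adjusted p = 4.85e-09, under the fold limit) and by 0.88 ± 0.06 in AhR-KO (adjusted p = 3.03e-15, a DAR).

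Clec4d, which stands beside Clec4e, had an intronic peak, chr6:123263046-123263571, with 4.28, 5.51 and 6.20 CPM in unstimulated WT, 5.39, 5.95 and 6.68 in unstimulated AhR-KO, 8.97, 9.68 and 11.2 in LPS-treated WT and 9.55, 11.4 and 12.9 in LPS-treated AhR-KO libraries. The LPS groups lay above the unstimulated groups without overlap in WT (0.87 ± 0.10, adjusted p = 5.94e-10) and in AhR-KO (0.91 ± 0.09, adjusted p = 5.64e-11). Its start-site peak held 5.68, 7.53 and 8.85 CPM in unstimulated WT, 4.98, 5.92 and 6.20 in unstimulated AhR-KO, 8.25, 8.65 and 10.9 in LPS-treated WT and 7.04, 7.94 and 10.6 in LPS-treated AhR-KO libraries. It was no DAR in WT (0.33 ± 0.11, adjusted p = 0.0115) or AhR-KO (0.55 ± 0.11, adjusted p = 7.79e-05), although it became one in AhR-KO without AhR-KO LPS replicate 1 (0.59) or 2 (0.59).

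Clec4n went the other way at its start, which held 17.98, 19.7 and 21.1 CPM in unstimulated WT, 17.3, 18.3 and 20.1 in unstimulated AhR-KO, 10.3, 12.1 and 13.7 in LPS-treated WT and 10.1, 11.4 and 17.6 in LPS-treated AhR-KO libraries. In WT the LPS group was below the unstimulated group without overlap (-0.69 ± 0.09, adjusted p = 3.86e-08). In AhR-KO 1 LPS library reached into the unstimulated range, and the difference (-0.57 ± 0.09, adjusted p = 1.26e-06) was under the fold limit. It passed the limit without AhR-KO LPS replicate 5 (-0.69) or 6 (-0.59), without AhR-KO unstimulated replicate 3 (-0.59), with RLE size factors (-0.61), with DESeq2 (-0.61) and with only the compared groups in the fit (-0.60). A weak peak 5.6 kb upstream, chr6:123224087-123224357, held 0.232, 0.671 and 0.918 CPM in unstimulated WT, 0.613, 0.857 and 1.04 in unstimulated AhR-KO, 1.66, 1.69 and 1.99 in LPS-treated WT and 2.15, 2.45 and 3.01 in LPS-treated AhR-KO libraries. It rose with LPS without overlap in WT (1.30 ± 0.18, adjusted p = 7.46e-08) and in AhR-KO (1.59 ± 0.16, adjusted p = 8.16e-11).

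In Clec5a an intronic peak, chr6:40580378-40580649, held 3.11, 3.99 and 4.62 CPM in unstimulated WT, 2.50, 2.94 and 3.64 in unstimulated AhR-KO, 8.19, 10.4 and 12.4 in LPS-treated WT and 9.48, 10.997 and 11.3 in LPS-treated AhR-KO libraries. It rose without overlap 2.60-fold in WT (1.38 ± 0.11, adjusted p = 6.19e-14) and 3.52-fold in AhR-KO (1.81 ± 0.11, adjusted p = 2.29e-17). The Clec5a start was lower with LPS without overlap, by amounts under the fold limit (-0.45 ± 0.08, adjusted p = 1.54e-05, and -0.44 ± 0.09, adjusted p = 3.11e-05).

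The upstream Clec7a peak of the printed sequence rose with LPS too, 2.95-fold in WT (1.56 ± 0.19, adjusted p = 5.20e-09) and 2.10-fold in AhR-KO (1.07 ± 0.14, adjusted p = 2.26e-08), without overlap. WT LPS libraries (1.49 to 2.70 CPM) thus covered about the range of unstimulated AhR-KO libraries (1.45 to 2.64 CPM). The peak 4.1 kb upstream fell in AhR-KO (-0.94 ± 0.10, adjusted p = 9.78e-11) and was under the fold limit in WT (-0.29 ± 0.10, adjusted p = 0.0159). Over the Clec7a start the values were -0.19 ± 0.07, adjusted p = 0.0250, in WT and -0.35 ± 0.07, adjusted p = 5.84e-05, in AhR-KO, neither a DAR.

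Of the inhibitory receptors, Clec4a2 fell at its start with LPS, 1.61-fold in WT (-0.69 ± 0.07, adjusted p = 2.28e-11) and 1.68-fold in AhR-KO (-0.75 ± 0.06, adjusted p = 1.01e-12), without overlap. An upstream peak, chr6:123094898-123096021, held 20.4, 21.7 and 22.9 CPM in unstimulated WT, 20.8, 22.4 and 23.7 in unstimulated AhR-KO, 9.36, 11.02 and 12.3 in LPS-treated WT and 9.62, 10.2 and 11.7 in LPS-treated AhR-KO libraries. Of its bases, 91.5% align elsewhere in the receptor loci, with 88.2% identity in the best match, and 0% do so at 95% identity or more. Whether its reads are shared with those places was not tested. The genotypes overlapped in both states, and LPS libraries were below unstimulated ones without overlap, 1.99-fold in WT (-0.996 ± 0.07, adjusted p = 4.85e-15) and 2.15-fold in AhR-KO (-1.10 ± 0.07, adjusted p = 1.61e-16). Clec12a had its LPS DARs away from its start-site peak. They included the peak from base 129344238, inside the gene, which was lower in WT (-0.85) and in AhR-KO (-0.65). The peak chr6:129325913-129326826, over the start of the neighbouring gene 4922502D21Rik, held 4.01, 5.77 and 6.65 CPM in unstimulated WT, 3.95, 4.44 and 5.28 in unstimulated AhR-KO, 1.95, 2.37 and 3.32 in LPS-treated WT and 1.92, 2.19 and 2.47 in LPS-treated AhR-KO libraries. It fell without overlap in WT (-1.17 ± 0.12, adjusted p = 2.82e-10) and in AhR-KO (-1.02 ± 0.13, adjusted p = 9.23e-09). The peak chr6:129337827-129338044, 4.8 kb upstream of the Clec12a gene start, held 2.77, 3.27 and 4.45 CPM in unstimulated WT, 2.01, 2.66 and 3.73 in unstimulated AhR-KO, 0.812, 1.24 and 1.55 in LPS-treated WT and 0.541, 0.704 and 1.14 in LPS-treated AhR-KO libraries. It fell without overlap as well (-1.46 ± 0.16, adjusted p = 1.00e-09, and -1.80 ± 0.18, adjusted p = 4.74e-11). Over the Clec12a start the values were -0.12 ± 0.06, adjusted p = 0.0641, and -0.19 ± 0.06, adjusted p = 0.00280, neither a DAR.

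Clec4a3 gained an intronic peak, chr6:122963074-122963656, which held 0.217, 0.338 and 0.581 CPM in unstimulated WT, 0.270, 0.444 and 0.780 in unstimulated AhR-KO, 3.09, 4.0004 and 4.78 in LPS-treated WT and 3.16, 3.52 and 3.90 in LPS-treated AhR-KO libraries. No unstimulated library (0 of 6 and 0 of 6) and all LPS libraries (6 of 6 in each genotype) had a peak call of their own there. The rise was 11.3-fold in WT (3.50 ± 0.22, adjusted p = 2.09e-16) and 7.31-fold in AhR-KO (2.87 ± 0.20, adjusted p = 1.84e-15). The start of Clec4a3 was lower with LPS without overlap, by -0.49 ± 0.07 on the log2 scale in WT (adjusted p = 3.43e-08, under the fold limit) and by -0.60 ± 0.06 in AhR-KO (adjusted p = 2.37e-10, a DAR). The latter was no DAR without AhR-KO unstimulated replicate 5 (-0.58) or AhR-KO LPS replicate 2 (-0.58), 3 (-0.56) or 4 (-0.58). Downstream of Clec4a1, chr6:122939530-122940087 held 11.02, 12.2 and 12.8 CPM in unstimulated WT, 11.1, 11.4 and 12.9 in unstimulated AhR-KO, 7.70, 8.26 and 8.76 in LPS-treated WT and 5.41, 5.88 and 7.68 in LPS-treated AhR-KO libraries. LPS libraries were below unstimulated ones in both genotypes, past the fold limit in AhR-KO (-0.93 ± 0.08, adjusted p = 2.37e-12) and under it in WT (-0.55 ± 0.08, adjusted p = 3.14e-07). Over the start of Clec4a1 the values were -0.21 ± 0.06, adjusted p = 0.00247, and -0.16 ± 0.06, adjusted p = 0.0153.

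The Clec10a start had the largest LPS change of the 10 start-site peaks, 3.11-fold lower in WT (-1.64 ± 0.09, adjusted p = 1.50e-17) and 4.36-fold lower in AhR-KO (-2.12 ± 0.09, adjusted p = 7.66e-22), without overlap. The difference between these changes, -0.49 ± 0.13 (adjusted p = 0.00761), was under the fold limit. The distal Clec10a peak at chr11:70189229-70189677 went the other way. With LPS 6 of 6 WT and 6 of 6 AhR-KO libraries had a peak call of their own there, against 0 of 6 and 0 of 6 without. The fitted log2 fold changes of 5.03 ± 0.47 in WT (adjusted p = 2.14e-10) and 5.45 ± 0.38 in AhR-KO (adjusted p = 2.72e-13) rest on few or no reads in unstimulated libraries.

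The signalling genes these receptors use were 16 adaptors, kinases, effectors and inhibitors, with 341 tested peaks within the same 20 kb. They had 38 peaks higher and 31 lower in unstimulated AhR-KO cells (11.1% and 9.09%, background 9.96% and 12.6%). In AhR-KO cells with LPS they had 27 higher and 31 lower (7.92% and 9.09%, background 13.4% and 13.1%). They had 18 higher and 23 lower interactions (5.28% and 6.74%, background 5.82% and 4.59%). With LPS they had 92 higher and 48 lower DARs in WT (26.98% and 14.1%, background 25.4% and 21.6%) and 84 and 81 in AhR-KO (24.6% and 23.8%, background 27.3% and 21.5%). Examples chosen after their counts were seen are Malt1, a protease that acts below Card9, with 19 of 25 peaks higher with LPS in WT and 20 of 25 in AhR-KO, and Plcg2, a phospholipase activated by Syk, with 11 of 32 lower in WT and 18 of 32 in AhR-KO. Syk itself had 6 higher and 2 lower of 28 peaks in unstimulated AhR-KO. Other C-type lectin genes were 16, with 117 tested peaks not already counted. They had 26 peaks higher and 11 lower in unstimulated AhR-KO cells (22.2% and 9.40%, background 9.96% and 12.6%). In AhR-KO cells with LPS they had 22 higher and 12 lower (18.8% and 10.3%, background 13.4% and 13.1%). They had 2 higher and 11 lower interactions (1.71% and 9.40%, background 5.82% and 4.59%). With LPS they had 17 higher and 43 lower in WT (14.5% and 36.8%, background 25.4% and 21.6%) and 17 and 56 in AhR-KO (14.5% and 47.9%, background 27.3% and 21.5%). Of these genes Mrc1 and Cd207 were not named as examples in advance. Mrc1, the mannose receptor, had 12 of its 32 peaks higher and 2 lower in AhR-KO without LPS, and 10 and 2 with LPS. On LPS 16 were lower and 3 higher in WT, and 23 and 3 in AhR-KO. Mrc1 alone thus held 12 of the 26 peaks higher in unstimulated AhR-KO cells and 23 of the 56 lower with LPS in AhR-KO. Cd207 (langerin) had 4 of 8 peaks lower in AhR-KO in each state.

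Motifs were counted in the central 300 bases of each peak, on both strands, each by itself, so matches may overlap. The AhR core GCGTG stood in 5 of the 98 receptor peaks (5.10%, against 16.02% of all 184060 peaks on the chromosomes). These were the Clec7a peaks 4.1 kb upstream and 20.8 kb downstream of its start, the latter over Clec1a, the start-site peak of Clec4e, a peak 2.8 kb upstream of Clec5a and a peak 48.2 kb downstream of the Clec4a2 gene start. Among them the upstream Clec7a peak was a genotype DAR (0.84 ± 0.10 without LPS) and the other 4 were not. Without LPS 14.7% of the tested receptor peaks were higher and 8.42% lower in AhR-KO (background 9.96% and 12.6%). A link between the motif and the genotype calls was not tested. AP-1 (TGANTCA) stood in 15.3% of the receptor peaks (17.9% of all), PU.1 (GAGGAAGT) in 8.16% (7.34%), C/EBP (TTGCNNAA) in 20.4% (15.7%), NF-kB (GGANTTTCC) in 2.04% (1.82%), the interferon element (GAAANNGAA) in 13.3% (10.9%) and STAT (TTCNNNGAA) in 14.3% (11.1%). A match describes letters only.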

How the data were processed

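ATAC-seq libraries of BMDM cultures were compared, 6 per group. Per the file headers and the study's methods, the authors ran an nf-core pipeline against mm10, called broad peaks per library with MACS2, merged them over all libraries, and deposited raw fragment counts per consensus peak made with featureCounts 2.0.1. A read counted where at least 0.2 of its bases overlapped the peak, and regions with near-identical copies can share reads. Fold enrichment and −log10 p of the deposited MACS2 lists were used only to ask whether a library had its own peak. The counts were tested with edgeR 4.0.16 (quasi-likelihood, TMM, filterByExpr, all 24 libraries in 1 fit, two-sided, Benjamini-Hochberg), which was tested on simulated data first. The SE is that of the fitted log2 fold change. DESeq2 1.42.0, RLE size factors, no low-count filter, a replicate block, fits of only the compared groups, other fold limits and peak assignments, and 24 fits without 1 library each were alternatives. Similar stretches within the receptor loci were found with blastn 2.17.0 (at least 100 bases). Named peaks were the start-site peak and the peak with the smallest p in each comparison, with values in full for start sites and DARs. Receptors, lists and rules were chosen with earlier results of these data known. No library repeated another of its own group, and libraries of different groups were not compared for this. Library depth limits the weak peaks, for which reads are given, and the peak calls of single libraries, which were not adjusted for it.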

Additional observations from a re-analysis of the deposited data

Results flagged for a closer look

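In 136 groups of 6 libraries (34 named peaks in 4 groups), 6 libraries stood far from the others of their group by Dixon's criterion, which chance meets in about 1 in 20 groups. At the Clec4a2 start, WT unstimulated replicate 1 held 29.1 CPM and the others 31.2 to 32.2. At the weak Clec4n peak upstream, WT LPS replicate 2 held 1.99 CPM (others 1.66 to 1.72). Clec12a had 3 of the 6, all at its peak over Clec12b, with 4.55 CPM in AhR-KO unstimulated replicate 5 (others 3.02 to 3.43), 1.66 in WT LPS replicate 6 (others 2.56 to 2.86) and 1.90 in AhR-KO LPS replicate 6 (others 1.13 to 1.38). At the upstream Clec7a peak of the printed sequence, AhR-KO unstimulated replicate 3 held 1.45 CPM (others 2.23 to 2.64).

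The genotype difference changed with LPS, by the test of that change itself (edgeR, adjusted p from 0.000618 to 0.0192), at 5 peaks described in the report. The log2 values were -0.72 in the Clec4a2 intron, 1.38 downstream of Clec4a2, -0.83 downstream of Clec12a, and -0.77 and -0.65 at the 3′ and upstream Clec7a peaks.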

How the results depend on the processing

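Counts of DARs among the receptor peaks are given lower first, then higher. Leaving out each library in turn gave 6 to 10 and 11 to 16 for genotype without LPS, 8 to 11 and 7 to 12 for genotype with LPS, 19 to 21 and 20 to 24 for LPS in WT, 24 to 27 and 23 to 24 for LPS in AhR-KO, and 4 to 5 and 0 to 2 for the interaction, whose single higher call was lost (0) without WT unstimulated replicate 3 and became 2 without WT LPS replicate 4 or 5. With a minimum fold change of 2 the counts in the same order of comparisons were 0 and 4, 1 and 5, 6 and 13, 12 and 15, and 0 lower interactions. With no minimum fold change they were 21 and 24, 19 and 24, 38 and 35, 42 lower, and 8 and 4. With a flank of 5 kb they were 4 and 8, 5 and 2, 12 and 11, 15 and 12, and 0 higher interactions, and with gene bodies alone 2 and 6, 2 and 2, 7 and 7, 8 and 8, and 2 and 0. With peaks whose nearest coding start was a receptor's they were 2 and 9 without LPS, 4 lower with LPS and 0 higher interactions. Fewer peaks enter these last 3 settings by construction, namely 59, 40 and 67 of the 95 tested. In the last of them the lower genotype calls of unstimulated cells went from 8 to 2, although 67 peaks remained. RLE size factors and DESeq2 each gave 5 lower genotype DARs without LPS in place of 8. Values near 0 changed sign without being called. The Clec5a start-site interaction was 0.01 (RLE -0.035, DESeq2 -0.041, leaving out libraries -0.029 to 0.061), the Clec4a1 start-site interaction 0.05 (RLE -0.00087, DESeq2 -0.0036), the Clec4n start genotype value with LPS -0.066 to 0.11 and the Clec12a start genotype value with LPS -0.0011 to 0.068 when libraries were left out. Where a call moved, the cause was not tested.

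Replicate numbers are shared by the groups in the labels, which do not say what a number marks. Correlations of the deviations of same-numbered libraries ran from -0.09 to 0.05 between the unstimulated genotypes, -0.13 to 0.21 between the LPS genotypes, 0.04 to 0.28 between WT states and 0.0030 to 0.16 between AhR-KO states, and 2, 2, 3 and 3 of 6 libraries correlated best with their own number. They were above 0.1 in 0, 1, 5 and 2 of 6 pairs, and above 0 in all 6 pairs between the states of each genotype, but in no comparison were all 6 above 0.1, and the numbers were not taken as pairs. With the replicate number as a block the counts were 8 and 13, 10 and 9, 21 and 22, 25 and 23, and 4 and 2. The higher Clec12a call without LPS was lost (0.58), and Clec4a2 gained a higher interaction.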
